A study of Mus musculus with 3 samples.

Results

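The genes described here are 3 sense and antisense pairs, Pip5k1b with Pip5k1bos, Cobl with Gm12002, and Xkr4 with Gm1992, which are 6 of the 31055 genes counted in the series. The pairs were chosen by measured values of these same nuclei, namely how their levels differed between projection neuron types and how closely the partners followed each other. Levels, partner correlations and the antisense share across projection neurons are therefore given as a description with no test. The libraries came from the olfactory bulbs (OB) of 3 adult C57Bl/6 mice, 1 library per mouse, and all mice form 1 group. Each had received retroAAV-CAG-H2B-GFP, a retrogradely transported virus that marks nuclei with a green fluorescent histone, in the piriform cortex (PCx) and in the anterior olfactory nucleus (AON). GFP-positive nuclei were sorted, so the nuclei are those the virus reached from these targets or by any other route, and the CAG promoter is active in most cell types. The statements on mice rest on n = 3 animals with no untreated comparison group.

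Mitral and tufted cells are the excitatory output neurons of the OB. They receive input from olfactory sensory neurons in the glomeruli and send axons to the AON, the PCx and other targets. Natural antisense genes are read from the opposite strand of another gene. Many lie within a protein-coding partner, and their transcripts can stay in the nucleus or act on the locus, although for most of them no function is known. Pip5k1b encodes a kinase that makes the membrane lipid phosphatidylinositol 4,5-bisphosphate. Cobl encodes cordon-bleu, an actin nucleator that shapes dendritic branches, and Xkr4 encodes a member of the XK family, whose relatives include lipid scramblases of the plasma membrane.

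Each antisense gene lay wholly within the span of its partner, on the other strand, in the GRCm38 annotation (GENCODE M21). Pip5k1b (ENSMUSG00000024867) spans chr19:24294794-24555872 on the minus strand, 261.079 kb, and Pip5k1bos (ENSMUSG00000085003) lies within it at chr19:24416009-24430329 on the plus strand, 14.321 kb with 4 exons. Cobl (ENSMUSG00000020173) spans chr11:12236608-12464960 on the minus strand, 228.353 kb, and Gm12002 (ENSMUSG00000086584) lies at chr11:12314514-12351028 on the plus strand, 36.515 kb with 3 annotated transcripts. Xkr4 (ENSMUSG00000051951) spans chr1:3205901-3671498 on the minus strand, 465.598 kb, and Gm1992 (ENSMUSG00000089699) lies at chr1:3466587-3513553 on the plus strand, 46.967 kb with 2 exons. The exons of the partners overlapped by 0 bp in every pair, so each antisense exon is intronic to its partner. The starts of the partners were 139.863 kb, 150.446 kb and 204.911 kb apart, which places none of the antisense genes at a shared promoter. Fam122a, on the same strand as Pip5k1b and inside it (chr19:24476502-24477356), was the other annotated gene that overlapped a member.

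**Figure D1:**
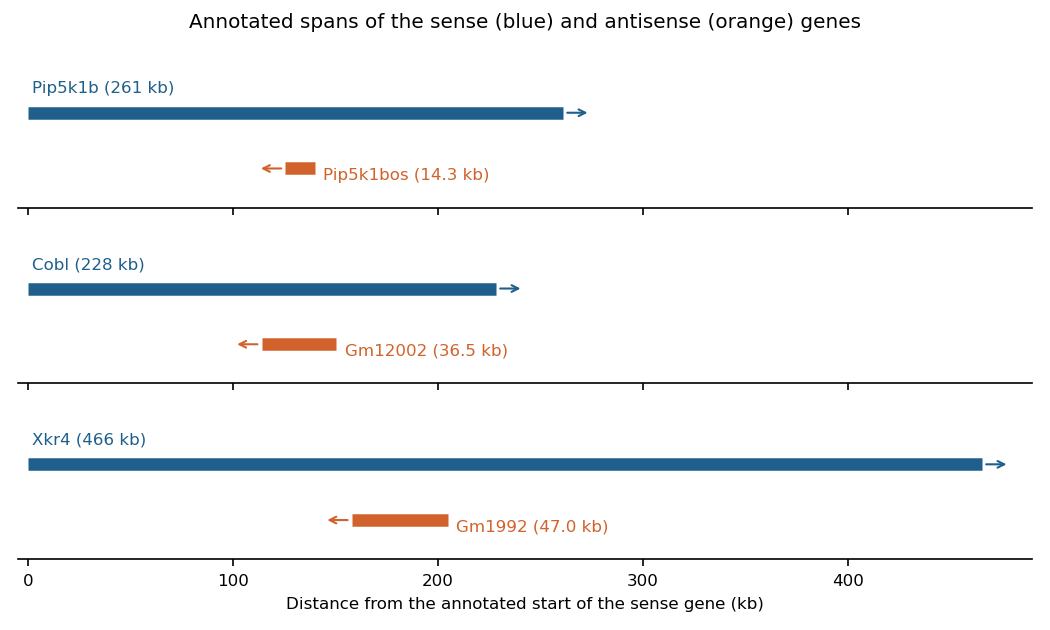
Position of each antisense gene within its sense partner, drawn to scale as the annotated spans in kb from the start of the sense gene, with arrows for the direction of transcription. Pip5k1bos, Gm12002 and Gm1992 begin 139.863 kb, 150.446 kb and 204.911 kb from the start of their partners.

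The sequences at the starts of the genes are printed because partners that moved together did not share a start. They are RefSeq windows of GRCm38.p6, from 250 bases before to 50 bases after each start, in the direction of the gene, with every CG dinucleotide in capitals. The Cobl window (chr11:12464911-12465210, minus strand) is set beside those of Gm12002 (chr11:12314237-12314536, plus strand) and Pip5k1bos (chr19:24415759-24416058, plus strand).
Cobl promoter: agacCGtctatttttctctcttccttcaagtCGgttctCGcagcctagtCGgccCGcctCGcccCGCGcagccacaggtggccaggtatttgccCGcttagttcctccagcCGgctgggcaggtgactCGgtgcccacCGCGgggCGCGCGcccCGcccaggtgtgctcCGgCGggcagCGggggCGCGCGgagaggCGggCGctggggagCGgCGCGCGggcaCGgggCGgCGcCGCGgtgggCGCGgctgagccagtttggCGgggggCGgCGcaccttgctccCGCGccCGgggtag
Gm12002 promoter: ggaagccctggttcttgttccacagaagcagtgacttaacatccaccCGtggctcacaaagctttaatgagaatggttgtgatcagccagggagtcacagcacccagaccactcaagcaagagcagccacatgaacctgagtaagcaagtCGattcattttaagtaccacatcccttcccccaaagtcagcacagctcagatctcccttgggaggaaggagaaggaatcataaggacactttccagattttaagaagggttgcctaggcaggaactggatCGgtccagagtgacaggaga
Pip5k1bos promoter: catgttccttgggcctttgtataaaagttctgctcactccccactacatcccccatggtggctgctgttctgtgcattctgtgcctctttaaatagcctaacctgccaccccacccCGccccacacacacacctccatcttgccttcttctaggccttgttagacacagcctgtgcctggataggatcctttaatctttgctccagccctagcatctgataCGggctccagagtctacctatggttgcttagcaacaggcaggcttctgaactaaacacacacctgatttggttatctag
RefSeq lists further starts, and the windows shown for Cobl and Gm12002 are those nearest to the annotated gene start. The Cobl window shown held 42 CG dinucleotides at a GC content of 75.3%. The Gm12002 window shown held 3 CG at 49.7% GC, and the Pip5k1bos window 2 CG at 50.7%, against medians of 7 CG and 52.7% GC over 32851 promoter windows. The motif TATAAA, searched on both strands, was found in the Pip5k1bos window and in 13.6% of all windows. In the Pip5k1bos window it began at base 20, near the upstream end and far from the start. GGTGTGA and TAATTA were in none of these 3 windows and in 3.98% and 5.29% of all windows, which says only that these letters are not there. A second Cobl window (chr11:12412091-12412390) held 1 TAATTA and 0 CG at 43% GC, and the other two Gm12002 windows held 0 CG at 27.7% and 28.3% GC.

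The spliced form of Gm1992 is short, 250 bases (transcript Gm1992-201), and is printed because Gm1992 was the most abundant antisense member. The 10x 3' chemistry primes on poly(A), and the capitals mark AATAAA, the canonical polyadenylation signal, read on the transcript strand.
Gm1992-201: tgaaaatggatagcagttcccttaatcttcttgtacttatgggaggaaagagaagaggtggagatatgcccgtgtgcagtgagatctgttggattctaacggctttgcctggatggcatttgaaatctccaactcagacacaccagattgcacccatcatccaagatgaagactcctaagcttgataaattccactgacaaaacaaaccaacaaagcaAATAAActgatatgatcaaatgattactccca
The signal began 32 bases from the end. Of 141672 annotated transcripts of at least 50 bases, 26.6% held AATAAA in their last 50 bases. Gm12002-202 held it as well, whereas Gm12002-201, Gm12002-203 and Pip5k1bos-201 did not.

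The deposited values were counts of unique molecular identifiers (UMIs). The 31703 nuclei retained by the study, 5845, 21105 and 4753 per mouse, held 58526996, 213891496 and 62929479 UMIs, with medians of 7940, 8420 and 10568 per nucleus. UMIs of a gene were summed over the nuclei of 1 mouse and 1 deposited cluster or subcluster. Levels are given as CPM, these sums scaled to the same total in all. Clusters were named from marker genes, by a rule set after the values were seen, as inhibitory neuron-like (10 clusters, 21236 nuclei), projection neuron-like (5 clusters, 7504 nuclei) and 5 non-neuronal kinds, and clusters 18 and 21 stayed unnamed. Cluster 18 carried the endothelial markers, but its 10 leading genes included Dcn, Mgp, Slc6a13 and Slc6a20a, known from fibroblasts of the meninges, beside Ly6c1, Slco1a4 and Ly6a, known from endothelial cells. The subclusters split the 7504 nuclei of the projection neuron-like clusters. Of the 10, 7 carried the markers of the mitral (M1, M2, M3), middle tufted (T1) or external tufted (ET1, ET2, ET4) types, 1 was periglomerular-like, and subclusters 2 and 8 stayed unnamed. The leading genes of subcluster 2 included the inhibitory neuron markers Dlx6os1 and Meis2, and those of subcluster 8 included Gm28928 and Fam135b, which also led inhibitory cluster 8, so these 2 subclusters are not taken as projection neuron types. The M1-like subcluster held 14 nuclei in mouse 1, and the periglomerular-like one, with 8 to 72 nuclei per mouse, was left out of comparisons. Between 8 and 39 retained barcodes were shared by any pair of mice.

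Whether the read counting used strand or included introns is not given in the sources used here. If it did not use strand, reads of a sense gene and its antisense partner could not be told apart where both lie, so each antisense value is uncertain to that extent. RNA free in the suspension adds to low levels in all clusters, and its part in them was not tested.

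Pip5k1b and Pip5k1bos were highest in external tufted types. Pip5k1b stood at 1892, 2028 and 1938 CPM in the ET4-like subcluster of mice 1, 2 and 3 (mean 1953, SD 68.8, n = 3) and at 679, 756 and 482 CPM in the ET1-like subcluster. Pip5k1bos stood at 25.5, 22.8 and 23.8 CPM in the ET4-like nuclei (mean 24.0, SD 1.40, n = 3) and at 8.97, 8.39 and 7.29 CPM in the ET1-like nuclei. For both genes every ET4-like value was above every ET1-like value, and every ET1-like value above those of the other subclusters. Pip5k1b was itself among the 10 leading genes of the ET4-like subcluster. The subclusters were formed on the same counts, so this level is not independent of them. Whether Pip5k1b itself shaped that clustering was not tested.

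The unnamed subclusters, whose leading genes were in part those of inhibitory clusters, had means between the ET1-like and the other named types. Unnamed subcluster 8 had 279, 325 and 342 CPM of Pip5k1b with 2.94, 2.18 and 3.22 CPM of Pip5k1bos. Unnamed subcluster 2 had 152, 277 and 84.5 CPM of Pip5k1b with 2.58, 3.90 and 0.97 CPM of Pip5k1bos. These 2 subclusters were separated for Pip5k1b but overlapped for Pip5k1bos. Of the named types, Pip5k1b was lowest in the T1-like nuclei at 10.0, 15.6 and 7.79 CPM, where its range overlapped those of the M1-like and M2-like nuclei. The third external tufted type, ET2-like, did not share the high level, with 48.6, 22.7 and 26.8 CPM of Pip5k1b. Pip5k1bos had 0 UMIs in the ET2-like and the M3-like nuclei, against 168 and 158 UMIs of the pair, and 3 UMIs over the group would stand at 0.487 and 1.3 CPM.

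Among the clusters compared, the means of both partners were highest in projection neuron cluster 4. Cluster 4 had 1233, 1212 and 958 CPM of Pip5k1b and 16.4, 14.4 and 12.3 CPM of Pip5k1bos. The oligodendrocyte-like cluster had 92.6, 87.1 and 193 CPM of Pip5k1b, and unnamed cluster 18 had 71.5, 86.9 and 201 CPM. Inhibitory cluster 8 had 113, 47.5 and 189 CPM. These 3 clusters overlapped in Pip5k1b level and all lay below cluster 4. Pip5k1bos in cluster 18 came from mouse 3 alone, with 0, 0 and 28.7 CPM. Over all 21 clusters compared, the mean of Pip5k1b ranged from 12 to 1134 CPM, 94.2-fold, and over the 9 subclusters 175-fold.

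**Figure D2:**
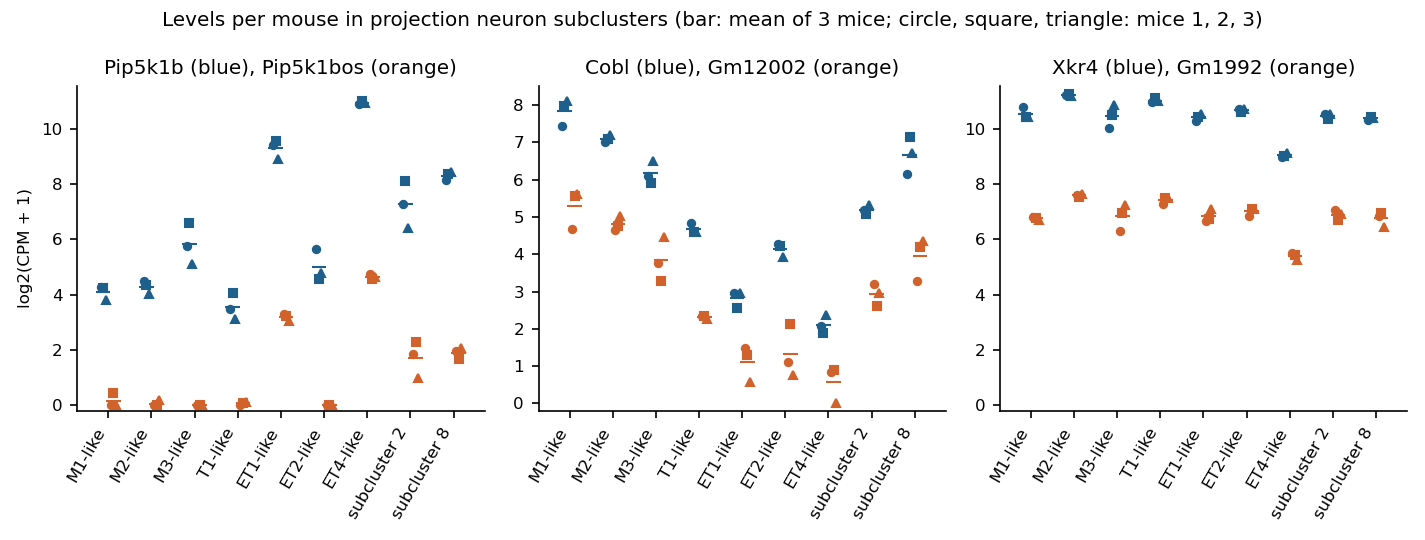
Levels of the 6 genes in the 9 subclusters compared, as log2(CPM + 1), with 1 point per mouse and a bar at the mean of 3 mice. Sense genes are in blue and antisense genes in orange. Unnamed subclusters 2 and 8 are included and are not taken as projection neuron types. Pip5k1b and Pip5k1bos are highest in the ET4-like nuclei (means 1953 and 24.0 CPM), Cobl and Gm12002 in the M1-like nuclei, and Xkr4 and Gm1992 in the M2-like nuclei.

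Cobl and Gm12002 followed a different order and were highest in mitral types. Cobl stood at 173, 249 and 275 CPM in the M1-like nuclei (mean 232, SD 52.7, n = 3), 128, 134 and 146 CPM in the M2-like nuclei, and 67.2, 59.1 and 90.2 CPM in the M3-like nuclei. Gm12002 stood at 24.8, 46.6 and 47.6 CPM in the M1-like nuclei, 24.2, 26.1 and 31.9 CPM in the M2-like nuclei, and 12.7, 8.83 and 20.9 CPM in the M3-like nuclei. The M1-like and M2-like ranges did not overlap for Cobl but did for Gm12002, through mouse 1, whose M1-like nuclei numbered 14. Without mouse 1 the M1-like means were 262 CPM of Cobl and 47.1 CPM of Gm12002.

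Tufted types held less of both partners. The T1-like nuclei had 27.7, 23.3 and 23.3 CPM of Cobl and 4.09, 4.07 and 3.84 CPM of Gm12002. The ET2-like nuclei had 18.5, 17.6 and 14.1 CPM of Cobl, and the ET1-like nuclei 6.73, 4.94 and 6.80 CPM. The ET4-like nuclei, highest for Pip5k1b, were lowest for Cobl at 3.19, 2.74 and 4.19 CPM and for Gm12002 at 0.80, 0.86 and 0 CPM. From the M3-like nuclei down, neighbouring subclusters did not overlap in Cobl level, and unnamed subcluster 8 (70.6, 140 and 105 CPM) overlapped both the M2-like and the M3-like nuclei.

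Oligodendrocyte precursor-like nuclei were those outside the neuronal clusters in which both Cobl and Gm12002 were highest. They had 110, 100 and 131 CPM of Cobl and 25.8, 19.6 and 16.3 CPM of Gm12002. This overlapped the Cobl level of projection neuron cluster 5 (121, 125 and 138 CPM) and lay below that of cluster 13 (154, 251 and 272 CPM). Nuclei of cluster 18 had 77.4, 89.7 and 90.8 CPM of Cobl but Gm12002 in 1 mouse of 3, with 0 to 13.8 CPM. The inhibitory clusters lay between means of 1.92 and 19.1 CPM of Cobl.

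Xkr4 and Gm1992 were broad and abundant. Xkr4 stood at 2369, 2411 and 2328 CPM in the M2-like nuclei and 1977, 2173 and 2028 CPM in the T1-like nuclei, so that the highest 2 subclusters were 1 mitral and 1 tufted. Gm1992 stood at 195, 183 and 197 CPM in the M2-like nuclei and 153, 180 and 181 CPM in the T1-like nuclei. The next 6 subclusters formed a run of overlapping neighbours, from ET2-like (1657, 1540 and 1686 CPM of Xkr4, 113, 135 and 135 CPM of Gm1992) to subcluster 8 (1262, 1377 and 1316 CPM of Xkr4). The ET4-like nuclei stood apart at the low end with 502, 512 and 550 CPM of Xkr4 and 44.7, 42.1 and 37.0 CPM of Gm1992. The Xkr4 range over the subclusters was 4.54-fold, far less than the 68.9-fold of Cobl.

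Across all clusters Xkr4 varied 22.6-fold, and the means of the inhibitory clusters lay wide apart. Cluster 17 had 2099, 1901 and 2201 CPM of Xkr4, a range that overlapped that of projection neuron cluster 2, whereas cluster 0, the one with the most nuclei, had 100, 100 and 99.0 CPM. Gm1992 in cluster 0 was 7.30, 7.56 and 7.57 CPM. In cluster 8 mouse 2 stood apart, with 806 CPM of Xkr4 against 1633 and 1698, and Gm1992 stood apart in the same mouse, with 60.7 CPM against 111 and 113. In microglia-like nuclei mouse 3 stood apart instead, with 942 CPM of Xkr4 against 341 and 265, while Gm1992 was 0, 37.3 and 44.9 CPM in mice 1, 2 and 3.

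In single nuclei thinned to 3000 UMIs each, which left out 348, 710 and 96 shallower nuclei, the same types stood out. Pip5k1b was detected in 95.6% ± 1.96 (SD, n = 3) of the ET4-like nuclei and Pip5k1bos in 6.59% ± 0.56, against 3.57% and 0% of the T1-like nuclei. Without thinning the ET4-like shares were 97.6% and 16.1%, at median depths of 10419 UMIs in the ET4-like and 15750 in the T1-like nuclei. Cobl was detected in 46.2% ± 4.42 of the M1-like nuclei (80.0% unthinned) and Gm12002 in 8.51% ± 7.37 (35.9% unthinned), against 0.696% and 0.121% of the ET4-like nuclei. Gm1992 was detected in 41.1% ± 0.64 of the M2-like nuclei (84.4% unthinned) and 10.6% ± 1.28 of the ET4-like nuclei (27.4% unthinned).

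The levels of the partners were compared across cell types. Pearson's r of log2(mean CPM + 1) was 0.871 for Pip5k1b and Pip5k1bos, 0.866 for Cobl and Gm12002 and 0.974 for Xkr4 and Gm1992 over 21 clusters. Over 9 subclusters the values were 0.952, 0.985 and 0.994. These points share libraries and depth, and the correlations are descriptions. Among 16454 genes each of the 6 members had its own partner as the most similar gene across clusters. Across subclusters, among 13434 genes, this held for Cobl, Gm12002, Xkr4 and Gm1992, whereas Pip5k1bos was the gene of rank 4 for Pip5k1b and Pip5k1b the gene of rank 11 for Pip5k1bos. In single mice the subcluster r was 0.932 or more in each pair, whereas across clusters it was lower in some mice. For the Cobl pair it was 0.404, 0.942 and 0.625 in mice 1, 2 and 3, for the Pip5k1b pair 0.682, 0.862 and 0.854, and for the Xkr4 pair 0.843, 0.982 and 0.805. Mouse 2 had the most nuclei, and without it the r of the Cobl pair across clusters was 0.662.

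**Figure D3:**
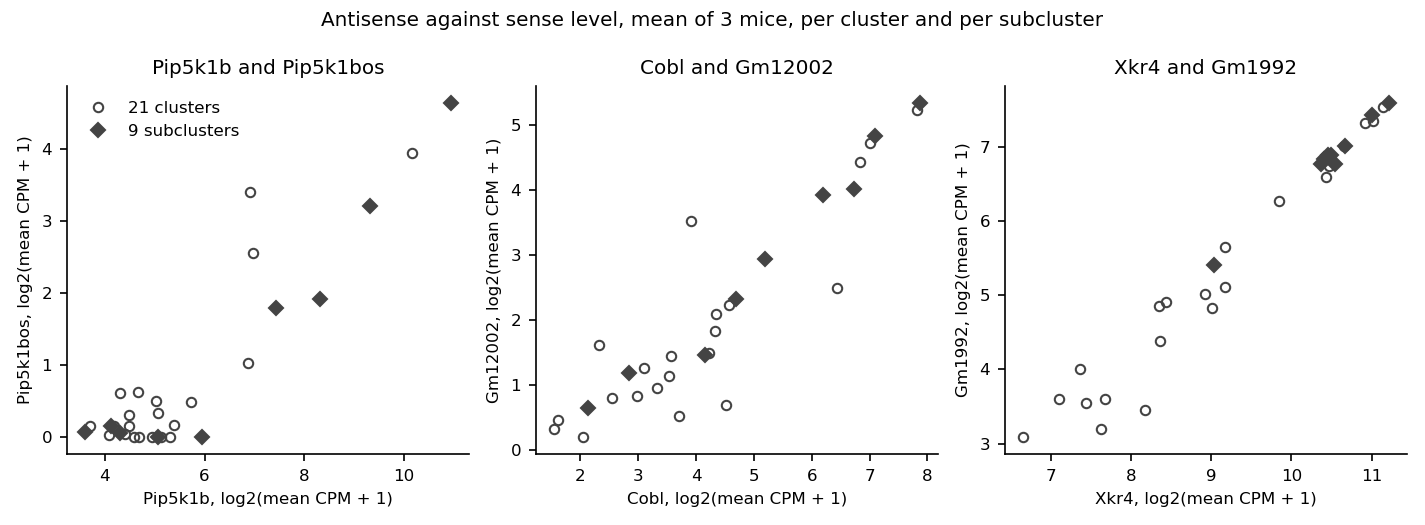
Mean level of each antisense gene against that of its sense partner, as log2(CPM + 1), with 1 circle per cluster and 1 diamond per subcluster (mean of 3 mice). The points of Xkr4 and Gm1992 lie along 1 line (r = 0.974 over 21 clusters), and those of the other pairs spread where the antisense level is low.

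The pairs were set beside all overlapping opposite-strand gene pairs of the annotation with both genes at 5 CPM or more somewhere. The median r of 2801 pairs across clusters was 0.435, and that of the 1021 pairs with 1 gene inside the other was 0.657. Of these 1021, 74.9%, 74.4% and 97.9% had a lower r than the Pip5k1b, Cobl and Xkr4 pairs. Across subclusters, of 728 contained pairs (median 0.698), 84.5%, 96.4% and 98.8% had a lower r. Per kb of annotated span, a scale that fits only if introns were counted, which is not given, the retained nuclei held 0.208 times as many UMIs of Pip5k1bos as of Pip5k1b, 1.12 times as many of Gm12002 as of Cobl and 0.792 times as many of Gm1992 as of Xkr4.

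Apart from the partners, the genes most like each member were as follows, with r across clusters. For Pip5k1b they were Ly6g6e (0.806) and Fam107b (0.803), and for Pip5k1bos Ly6g6f (0.856) and Pmvk (0.804). Riox2 (0.845) and Npr1 (0.829) were nearest to Cobl, and Npr1 (0.811) and Ptger2 (0.785) to Gm12002. Gmcl1 (0.904) and Kif5c (0.892) were nearest to Xkr4, and Gmcl1 (0.926) and Gabrb2 (0.890) to Gm1992. Partners thus shared Npr1 and Gmcl1 among their nearest genes.

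Across subclusters Pip5k1b was nearest to Dnase1l3 (0.984), Tmem132cos (0.971) and Tmem132c (0.960), the last 2 being named as another gene and its opposite-strand transcript. Pip5k1bos was nearest to Tmem132d (0.977), Gm42817 (0.967) and Gm26902 (0.966). The gene 8030462N17Rik was second for both Cobl (0.952) and Gm12002 (0.962), followed by Rasal1 (0.948) and Dera (0.955). Phf24 and Gm32250 were the next genes for both Xkr4 (0.974 and 0.978) and Gm1992 (0.980 and 0.970).

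The antisense share, which is antisense UMIs as a percent of all UMIs of the pair, was alike in the 3 mice. Gm1992 made up 7.28%, 7.36% and 7.57% of its pair in mice 1, 2 and 3, from 22475 UMIs of Gm1992 and 281382 of Xkr4. Gm12002 made up 15.3%, 15.0% and 15.4%, from 1919 UMIs beside 10750 of Cobl. Pip5k1bos made up 1.25%, 1.07% and 1.24%, from 459 UMIs beside 40139 of Pip5k1b. The exact 95% intervals of the 3 mice overlapped within each pair. Such intervals cover counting error only.

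In the subclusters with at least 20 expected antisense UMIs the share ranged less than the level of the sense gene. Pooled over mice, the Gm1992 share ran from 7.20% in the M1-like nuclei (exact 95% interval 6.84 to 7.57) to 7.70% in the T1-like nuclei (7.51 to 7.88), a 1.07-fold range over 9 subclusters in which Xkr4 varied 4.54-fold. Single mice ranged more widely, from 6.02% in the M1-like nuclei of mouse 1 to 8.48% in the ET1-like nuclei of mouse 3, and the means over mice ran from 6.80% (M1-like) to 7.70% (ET1-like). The ET4-like nuclei, lowest for both partners, had a share of 7.54% (6.85 to 8.27). The Gm12002 share ran from 13.2% in subcluster 8 (9.74 to 17.4) to 16.7% in the M2-like nuclei (15.5 to 17.8), 1.26-fold over the 6 subclusters that had enough UMIs, in which Cobl varied 9.39-fold. The Pip5k1bos share was 1.18% in the ET4-like, 1.20% in the ET1-like and 1.40% in subcluster 2, the 3 that had enough UMIs, over an 11.4-fold range of Pip5k1b. The low end of that range was subcluster 2 (mean 171 CPM), which is not taken as a projection neuron type. The ET4-like and ET1-like means lay closer together, at 1953 and 639 CPM.

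Where the pair was low the shares were less certain, and for Pip5k1bos some lay lower and others higher. The M2-like nuclei had 1 UMI of Pip5k1bos among 480 of the pair, 0.208% (0.0053 to 1.16), below the ET4-like share of 1.18% although the intervals overlap (ET4-like 1.03 to 1.34). Cluster 5 had 1 among 688, 0.145% (0.0037 to 0.807), and inhibitory cluster 0 had 4 among 1079, 0.371% (0.101 to 0.946). Both intervals lay wholly below that of cluster 4, 1.22% (1.10 to 1.34), but they leave out the spread between mice. Cluster 0 had 1.01%, 0.134% and 0.741% in mice 1, 2 and 3. The single UMIs of cluster 5 and of the M2-like nuclei were in mouse 3 and may be the same one, since the subclusters split the projection neuron-like clusters. Cluster 18 had 6 among 123, 4.88% (1.81 to 10.3), an interval wholly above that of cluster 4, with all 6 in mouse 3. The oligodendrocyte-like cluster had 5 among 206, 2.43% (0.793 to 5.57). In the ET2-like nuclei 0 of 168 UMIs of the pair were Pip5k1bos, with an exact upper bound of 2.17%, which includes the ET4-like share. The ET4-like nuclei had 7 UMIs of Gm12002 among 37 of the pair, 18.9% (7.96 to 35.2), an interval that includes the mitral shares. The absence of Pip5k1bos from ET2-like nuclei was thus not distinguishable at this depth from the share seen in ET4-like nuclei.

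**Figure D4:**
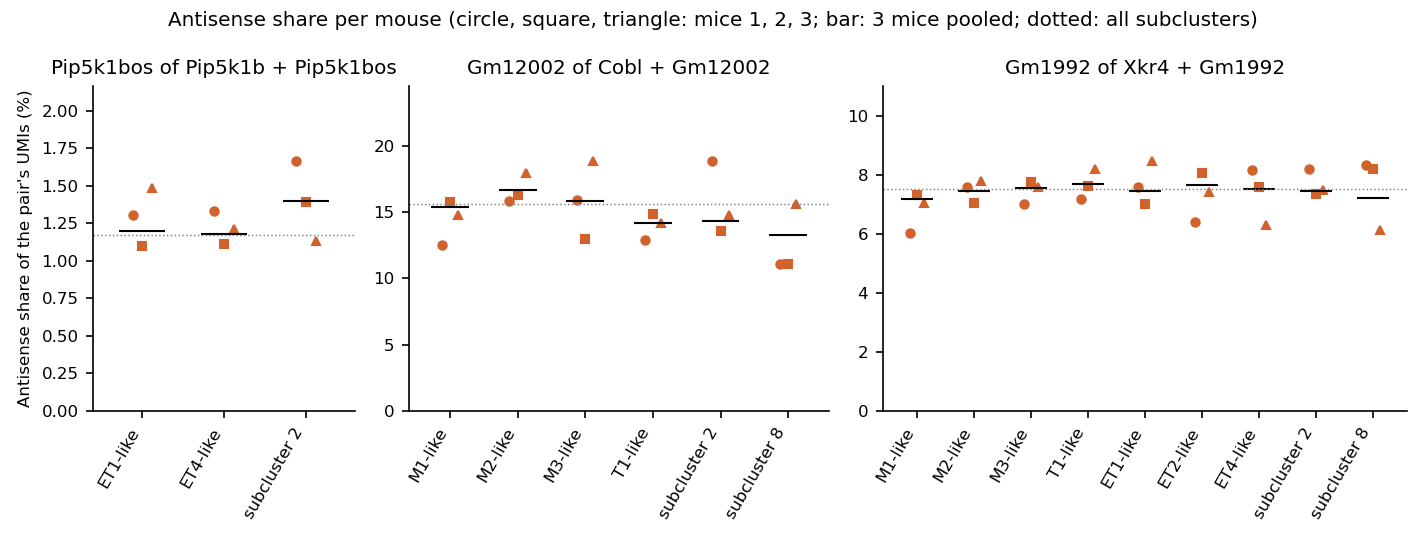
Antisense share of each pair's UMIs in percent in the subclusters with at least 20 expected antisense UMIs. There is 1 point per mouse, a bar for the 3 mice pooled and a dotted line for all subclusters together. Unnamed subclusters 2 and 8 are included and are not taken as projection neuron types. The pooled Gm1992 share stays between 7.20% and 7.70%, and the Gm12002 share between 13.2% and 16.7%.

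Among inhibitory neurons the question was whether the partners also kept a fixed ratio, tested by a permutation test of cluster labels within mice on clusters with at least 20 UMIs of the pair in each mouse. The Gm1992 share differed between the 10 inhibitory clusters beyond the spread of the 3 mice (permutation test, 100000 resamples, p = 3.0e-05, Benjamini-Hochberg adjusted over 3 pairs 9.0e-05). The share was lowest in cluster 10, at 3.18%, 5.31% and 3.70% (mean 4.06%), and in cluster 1, at 4.41%, 6.12% and 5.00% (mean 5.18%). It was highest in cluster 6, at 7.47%, 8.60% and 7.63% (mean 7.90%), and in cluster 7, at 7.36%, 7.59% and 8.39% (mean 7.78%). Every mouse had a lower share in clusters 10 and 1 than in clusters 6 and 7. The adjusted p stayed between 0.0028 and 0.015 when each mouse in turn was left out. The pairs were chosen by how closely the partners followed each other in these same nuclei, and the clusters were formed on the same counts. The p-values of the share tests, for this and the other pairs, are thus not independent of that choice.

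The order of the shares was not the order of the levels. Cluster 17 had the highest Xkr4 level of the inhibitory clusters and cluster 0 the lowest, and their mean shares were 7.22% (7.30%, 6.87% and 7.49%) and 6.97% (6.78%, 7.03% and 7.10%). In cluster 8, mouse 2 had the lowest level of both partners but its share, 7.0%, was above the 6.38% and 6.24% of the other two mice. Clusters 12 and 15 lay between, with mean shares of 5.77% and 5.58%, and cluster 3 at 7.55%. What sets these shares apart was not tested. The same permutation test gave adjusted p = 0.67 for Gm12002 in 3 clusters (mean shares 9.86% to 16.5%) and adjusted p = 0.61 for Pip5k1bos in 6 clusters (mean shares 0% to 1.07%). These tests over 3 mice rested on antisense counts of 0 to 55 UMIs per cluster, and no difference was detected. For Gm12002, 3 clusters in 3 mice allow few rearrangements of labels, so the test could hardly give a small p whatever the depth.

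**Figure D5:**
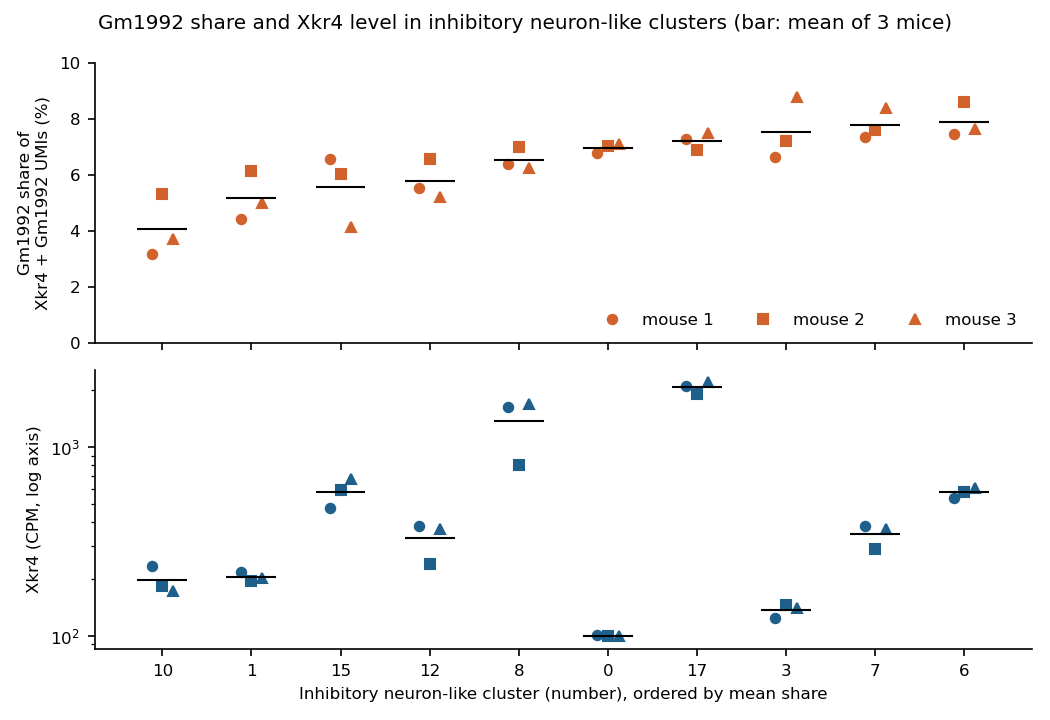
Gm1992 share of the pair's UMIs in percent in the 10 inhibitory neuron-like clusters, ordered by mean share, with 1 point per mouse and a bar at the mean of 3 mice, above the level of Xkr4 in CPM on a log axis. Mean shares run from 4.06% in cluster 10 to 7.90% in cluster 6, while clusters 0 and 17, at the ends of the Xkr4 range, lie at 6.97% and 7.22%.

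Outside the neuronal clusters the pooled Gm1992 shares ran from 4.53% (2.56 to 7.36) in cluster 18 to 8.41% (7.16 to 9.80) in the astrocyte-like cluster. These were the lowest and the highest pooled shares of the 21 clusters compared. Their intervals overlapped those of inhibitory clusters 10 (3.66 to 5.88) and 6 (7.70 to 8.79), respectively. In cluster 18 the share was 5.88%, 6.05% and 0% in mice 1, 2 and 3. The Gm12002 share was 19.0%, 16.3% and 11.1% in the oligodendrocyte precursor-like nuclei of mice 1, 2 and 3 and 23.3%, 13.9% and 5.83% in inhibitory cluster 8, ranges that overlap. The periglomerular-like subcluster, left out above, had a Gm1992 share of 8.79%, 9.13% and 8.31%.

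In the same nucleus, Gm1992 was found more often where Xkr4 was found. In nuclei thinned to 3000 UMIs, Gm1992 was detected in 40.3% ± 2.17 (SD, n = 3) of the cluster 5 nuclei with Xkr4 and in 7.50% ± 3.0 of those without it. The values were 36.7% ± 2.29 and 11.6% ± 5.56 in cluster 2, 18.4% ± 4.37 and 13.2% ± 6.01 in cluster 4, and 21.0% ± 4.78 and 5.55% ± 4.32 in inhibitory cluster 8. Nuclei without Xkr4 were few in clusters 5 and 2. Xkr4 was detected in 94.9%, 97.3% and 94.1% of the thinned cluster 5 nuclei of mice 1, 2 and 3. In cluster 2 it was detected in 97.4%, 97.8% and 93.8%. The share was higher with the sense RNA in 3 of 3 mice in each of the 4 clusters with at least 5 such nuclei expected in every mouse, by 19.6 points on average. For Gm12002 the values were closer at this depth, 8.87% ± 1.61 against 6.47% ± 0.59 in cluster 5 and 8.47% ± 1.6 against 7.40% ± 1.21 in the M2-like nuclei, with the same sign in 3 of 3 mice. Most of it came from mouse 3, since the M2-like differences were 0.325, 0.0459 and 2.85 points in mice 1, 2 and 3, and without mouse 3 the mean difference was 0.185 points there and 1.25 points in cluster 5. With thinning to 5000 UMIs the mean differences were larger, 4.00 points in the M2-like nuclei and 5.08 points in cluster 5. Pip5k1bos was too rare for this comparison. Clusters mix nuclei of several types, so these values describe nuclei and not replicates.

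Within a subcluster the amount of sense RNA per nucleus was set beside that of antisense RNA, a split chosen after the data were seen. In the M2-like nuclei Gm1992 stood at 44.2, 63.3 and 74.7 UMIs per 100 thinned nuclei with 0 to 5, 6 to 8 and 9 or more UMIs of Xkr4 (means of 3 mice), and in each mouse the first of these was the lowest. In the ET4-like nuclei Pip5k1bos stood at 3.44, 11.1 and 10.8 UMIs per 100 nuclei with 0 to 4, 5 to 7 and 8 or more UMIs of Pip5k1b, again lowest at the first in each mouse. Gm1992 in the same ET4-like nuclei was 13.6, 12.4 and 16.0 UMIs per 100 nuclei with 0 to 1, 2 and 3 or more UMIs of Xkr4, a difference within the spread of the mice. Gm12002 in the M2-like nuclei was 8.39 UMIs per 100 nuclei with no Cobl UMI and 8.69 with 1 or more. In the M1-like nuclei it was 11.3, 20.1 and 12.1 UMIs per 100 nuclei with 0, 1 and 2 or more UMIs of Cobl in mouse 2 and 13.1, 19.0 and 7.32 in mouse 3, highest in the middle range, and mouse 1 had no nucleus in the last. In inhibitory cluster 0, where Xkr4 was lowest, Gm1992 stood at 1.21 UMIs per 100 nuclei with no Xkr4 UMI and 7.43 with 1 or more.

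A test for any difference between the 10 inhibitory clusters (edgeR quasi-likelihood F test on counts summed per mouse and cluster) called 59.2% of 14722 genes at an adjusted p under 0.05. Pip5k1b, Cobl, Xkr4 and Gm1992 passed its filter on low counts and all 4 were called. Pip5k1bos and Gm12002 did not pass the filter. With most genes called and clusters formed on the same counts, the members' calls are not set apart from the background. With no filter on low counts, 9473 of 25695 genes were called, Pip5k1bos (edgeR adjusted p 0.034) and Gm12002 (edgeR adjusted p 0.0017) among them. Mean levels over these clusters ran from 16.0 to 116 CPM for Pip5k1b, from 1.92 to 19.1 CPM for Cobl, and from 99.8 to 2067 CPM for Xkr4.

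The relatives of the sense genes were tested between projection neurons (the 7 named types, without subclusters 2, 8 and 9) and inhibitory neurons, summed per mouse, to show whether the families moved with the members. Of 18088 genes, 15.4% were called higher and 13.9% lower in projection neurons at an adjusted p under 0.05 and a log2 fold change past 1 (edgeR quasi-likelihood test, Benjamini-Hochberg adjusted over all genes tested). The members stood 3.15 (Pip5k1b), 4.01 (Pip5k1bos), 3.77 (Cobl), 4.29 (Gm12002), 2.46 (Xkr4) and 2.67 (Gm1992) above inhibitory neurons on the log2 scale, which is a description.

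Of the XK family, 4 of 7 genes were tested and all 4 were higher in projection neurons than in the summed inhibitory neurons. The median log2 fold change was 1.17 against 0.01 over all genes. Xkr8, a caspase-activated scramblase, rose most, from 0.590 CPM ± 0.16 (SD, n = 3) in inhibitory to 4.15 CPM ± 0.69 in projection neurons (log2 fold change 2.94, SE 0.25, edgeR adjusted p 3.5e-05). Xkr6 had the highest level of the list, which leaves out Xkr4, at 65.1 against 31.6 CPM (log2 fold change 1.13, SE 0.18, edgeR adjusted p 0.0010), and was not called without mouse 2. Xk and Xkr7 rose by log2 fold changes of 1.16 and 1.17.

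The phosphoinositide kinases were mixed. Of 6 tested, 2 were higher in projection neurons and the median was 0.02. Pip4k2c, which acts on phosphatidylinositol 5-phosphate, stood at 68.5 against 27.8 CPM (log2 fold change 1.38, SE 0.09, edgeR adjusted p 8.6e-06), and Pip5kl1 at 4.89 against 1.53 CPM (log2 fold change 1.75). The highest inhibitory cluster mean of Pip5kl1 was 8.19 CPM, above its projection mean, and that of Pip4k2c was 32.7 CPM, below its projection mean. Pip5k1a, the one of these 6, which leave out Pip5k1b, with the highest level in projection neurons, differed little, with 90.6 against 91.9 CPM. Pip4k2a, at 81.4 against 131 CPM, did not pass the fold threshold.

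Of the actin nucleation and Cobl partner genes, 11 of 14 were tested, with a median of 0.10. Pacsin3, which encodes a membrane-curving protein, was higher in projection neurons (22.9 against 2.46 CPM, log2 fold change 3.23, SE 0.19, edgeR adjusted p 6.2e-06). Cobll1, the paralog of Cobl, was lower (1.67 against 6.22 CPM, log2 fold change -1.82, SE 0.21, edgeR adjusted p 0.00017), the direction opposite to Cobl. Its inhibitory cluster means ran from 0.139 to 48.0 CPM, so this direction did not hold against every inhibitory cluster. Pacsin1 had the highest level of the list, 242 against 305 CPM, and did not pass the fold threshold.

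Between the mean of the mitral-like and the mean of the tufted-like types, 5.53% of 14696 genes were called higher and 3.81% lower in mitral types. Of the list genes tested, Xkr6, 1 of 4 XK genes, and Pacsin2, 1 of 10 actin genes, were called. Xkr6 was lower in mitral types, 30.9 against 125 CPM (log2 fold change -2.04, SE 0.12, edgeR adjusted p 9.1e-13), while Xkr4 stood 0.44 and Gm1992 0.40 higher on the log2 scale. Pacsin2 was lower as well, 60.6 against 134 CPM (log2 fold change -1.01, SE 0.09, edgeR adjusted p 2.5e-09), close to the fold threshold. It was not called by DESeq2, with no filter on low counts, with DESeq2 size factors, or without mouse 1 or mouse 3. List medians were 0.01 for the phosphoinositide kinases, -0.15 for the actin genes and -0.51 for the XK family, against -0.03 over all genes. The difference of the Cobl pair in the same fit was 3.83 for Cobl and 3.84 for Gm12002, and that of Pip5k1b was -2.43. Pip5k1bos was tested as well, but its log2 fold change of -3.40 had an SE of 5360 and is no usable estimate.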

How the data were processed

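Nuclei of 3 mice were profiled with 10x Chromium Single Cell 3' v3, 1 library per mouse. The deposited counts are UMIs per gene and barcode, made by the authors on mm10/GRCm38 with Cell Ranger, whose version stands in the matrix header as 3.0.2. The authors kept nuclei with at least 1000 genes, merged the mice and deposited a cluster and subcluster for each nucleus, which was used here. A deposited column gives the percent of mitochondrial UMIs per nucleus, on which the authors had filtered. Counting settings for strand and introns are not given in the sources used here. The sort gated out doublets by forward scatter area against height, and no doublet caller was run here. The number of unused columns of per-sample values was 0.

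The members and gene lists were chosen with earlier results of these data known. UMIs were summed per mouse and cluster, expressed as CPM, and clusters with at least 10 nuclei in each mouse were compared. Shares have exact Clopper-Pearson 95% intervals, which cover counting error only. Correlations used log2(CPM + 1) of the mean of 3 mice. Genes named were the 6 members, the 3 genes most like each member by r, and in each list every gene called and the one with the highest CPM. A few list genes that were not called were named as well, after their values were seen. Summed counts were tested with edgeR 4.0.16 (TMM, filterByExpr, quasi-likelihood, R 4.3.3), with DESeq2 1.42.0 as an alternative. On simulated counts for projection against inhibitory neurons with 18106 genes, 87% of 2-fold and 100% of 4-fold changes were recovered, and for the other comparisons 100% of both. Permutation tests used scipy 1.17.1 and numpy 2.4.6.

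Projection and inhibitory nuclei of 1 mouse came from the same animal, which pairs them. Deviations from the group means correlated within mice (r 0.302, 0.369 and 0.521 over 11528 genes) and between mice lay from -0.406 to 0.0692. Gene positions came from GENCODE M21 and matched 30934 of 31055 identifiers. Alternatives left out each mouse, changed the scaling, pseudocount, filters and thinning depth, and added the mouse as a block.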

Additional observations from a re-analysis of the deposited data

Results flagged for a closer look

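The barcodes that the study did not retain, 1873, 8724 and 2123 in mice 1, 2 and 3 with medians of 785, 732 and 808 UMIs, enter no comparison above but hold UMIs of these pairs. The Gm1992 share there was 7.26% (exact 95% interval 6.40 to 8.19), 4.71% (3.72 to 5.87) and 5.11% (4.36 to 5.93), and in mice 2 and 3 these intervals lie below the shares of the retained nuclei, 7.36% and 7.57%. The Gm12002 share was 17.4% (12.5 to 23.1), 3.64% (1.00 to 9.05) and 7.75% (3.93 to 13.4), again below the retained 15.0% and 15.4% in mice 2 and 3 and not in mouse 1. Pip5k1bos had 0, 1 and 2 UMIs in these barcodes. The difference between mice was not tested.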

How the results depend on the processing

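Of 154 alternative values for 21 results, 139 stayed within the spread of the mice, on the same side of their threshold or within 1.5 times the count, and none changed direction. The exceptions follow, and their cause was not tested except where the setting itself gives it. The r of Pip5k1b and Pip5k1bos across subclusters was 0.935 with a pseudocount of 0.1 CPM and 0.923 with 5 CPM. The co-detection difference of Cobl and Gm12002 was 5.08 points across clusters and 4.00 points across subclusters after thinning to 5000 UMIs, against 2.40 and 1.07 at 3000. Of the list genes between mitral and tufted types, 1 was called by DESeq2, with no filter on low counts and with DESeq2 size factors, and 1 to 2 when each mouse was left out. Dropping Malat1 and the mitochondrial genes from the total, which raises all CPM, or averaging over nuclei moved 4 of the 6 members' levels by more than the spread of the mice, not those of Cobl and Gm12002, among them Pip5k1b in the ET4-like nuclei to 2094 CPM and Xkr4 in the M2-like nuclei to 2594 CPM. With the mouse as a replicate block the list calls were 4 members between inhibitory clusters, 2 between mitral and tufted types and 8 between projection and inhibitory neurons, the same numbers as without it. When each mouse was left out, the last of these ran from 7 to 9, the r of Cobl and Gm12002 across clusters from 0.662 to 0.924, the co-detection difference of Gm1992 from 18.9 to 20.4 points and of Gm12002 from 1.25 to 3.27 points across clusters and from 0.185 to 1.59 points across subclusters. A minimum of 50 UMIs per mouse gave no value for Gm12002, and thinning to 5000 UMIs none for Gm1992, since not all of its clusters then had enough nuclei. With mouse 2 or mouse 3 left out, the Gm12002 share test on 3 clusters had too few rearrangements to fall under 0.05. Its outcome there was fixed in advance, and these values are among the 139.

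Precision is limited by the 3 mice, by the low counts of Pip5k1bos and Gm12002, and by the 14 M1-like nuclei of mouse 1. Whether the deposited counts used strand is not given in the sources used here, and the part of the partner's reads in the antisense values was not tested. Barcodes found in more than 1 mouse were few, and leaving them out was an alternative added after the data were seen. It was run on the levels of the 6 members, each in 1 subcluster, the 6 partner correlations and the 3 share tests. None of these levels or correlations moved beyond the spread of the mice, and each share test stayed on the same side of its threshold.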
